A study of Homo sapiens with 15 samples.

Results

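Receptor tyrosine kinases, several of their ligands and MACC1, a regulator that has been linked to transcription of the MET receptor gene, were followed across a platinum-sensitive ovarian cancer line and 4 platinum-resistant lines derived from it. The set was a list of 48 gene symbols, of which 37 had a row among the 16604 genes of the expression table. HGF, KIT, FLT1, TEK, EPHA4, EPHA7, EPHB6, RET, NTRK2, AREG and EREG are not analysed here. The starting line, Ovcar4Parental, is the OVCAR4 line of high-grade serous ovarian carcinoma and is labelled platinum sensitive. Ov4Cis was selected in rising cisplatin and Ov4Carbo in rising carboplatin. Selection went on until the IC50, an inhibitory drug concentration that serves as a measure of resistance, had increased by 2 to 10 fold. Ov4Carbo4 and Ov4Carbo7 each grew from a single Ov4Carbo cell. All 5 lines were cultured in DMEM with fetal bovine serum, and each gave 3 biological replicates, so 15 polyA-captured RNA libraries were compared. Each resistant line is 1 derivation from 1 parental line, so the replicates measure the spread between cultures of a line and not between independent selections.

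Receptor tyrosine kinases are cell-surface proteins whose outer part binds a ligand and whose inner part is a kinase. Ligand binding brings receptors together, they phosphorylate each other, and adaptor proteins then pass the signal to the RAS-MAPK and PI3K-AKT pathways. In ovarian carcinoma cells these receptors carry growth, survival and adhesion signals, and expression of a receptor gene says nothing by itself about phosphorylation of the protein.

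Values are log2 RPKM, the log2 of reads scaled by transcript length and library size as normalised by the authors, so levels of different genes can be compared per length. Differences are log2 changes from a linear model (limma) fitted to all genes and all 15 samples, and a gene is called at an adjusted p under 0.05 with a log2 change of at least 1 in size. Read depth is unknown because the table holds no counts, and a value far below log2 RPKM 0 rests on very few reads. The median over all genes was 2.77 log2 RPKM in all 15 samples. Replicate 1 of Ov4Carbo stood apart, more over the 37 genes than over all genes. Its root mean square difference from the other replicates of its line was 0.74 log2 units over all genes. Ov4Carbo replicates 2 and 3 stood at 0.67 and 0.64. Over the 37 genes the difference of replicate 1 was 1.15, against 0.35 to 0.93 for the other 14 libraries. The numbers in the sample titles form 2 runs, one holding this library and both single-cell lines and the other holding the parental line, Ov4Cis and Ov4Carbo replicates 2 and 3. The labels do not call these runs a batch, but a difference between a single-cell line and the parental line cannot be told apart from a difference between the runs. A fit with a term for the runs estimates that term from Ov4Carbo alone, whose replicates fall on both sides. Of 13 ovarian serous carcinoma markers, all 13 were in the table. PAX8 lay between 5.85 and 6.74 log2 RPKM and SOX17 between 6.65 and 7.76 as line means, while WT1 was at most -1.52 in any line.

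The main features of the set were near-complete loss of MACC1 in all 4 resistant lines beside a steady MET level, graded loss of EPHA1, loss of ERBB3 in Ov4Cis and Ov4Carbo7, and opposite movement of the receptor MERTK and its ligand GAS6. Against the parental line, 17 of the 37 genes (45.9%) were called in Ov4Cis, 4 higher and 13 lower, where 15.9% of all genes were called, 8.46% higher and 7.41% lower. In Ov4Carbo 15 of 37 (40.5%) were called, 3 higher and 12 lower, against 12.7% of all genes (5.76% higher, 6.93% lower). In Ov4Carbo4 12 of 37 (32.4%) were called, 3 higher and 9 lower, against 15.1% of all genes (7.43% higher, 7.7% lower). In Ov4Carbo7 16 of 37 (43.2%) were called, 2 higher and 14 lower, against 17% of all genes (9.26% higher, 7.75% lower). The median log2 change of the 37 genes was -0.47, -0.28, 0.01 and -0.69 in these comparisons, in the order given, where the medians over all genes were 0.04, 0.03, 0.07 and 0.02. Among all 5 lines, 34 of the 37 genes (91.9%) passed limma's F-test, against 76.9% of all genes. The list was assembled with earlier results of these data known, so these shares describe it and test nothing about it. The 4 comparisons also share the same 3 parental samples. Ov4Carbo4 and Ov4Carbo7 descend from Ov4Carbo, so a change that these lines share with Ov4Carbo is not an independent repeat.

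**Figure D1:**
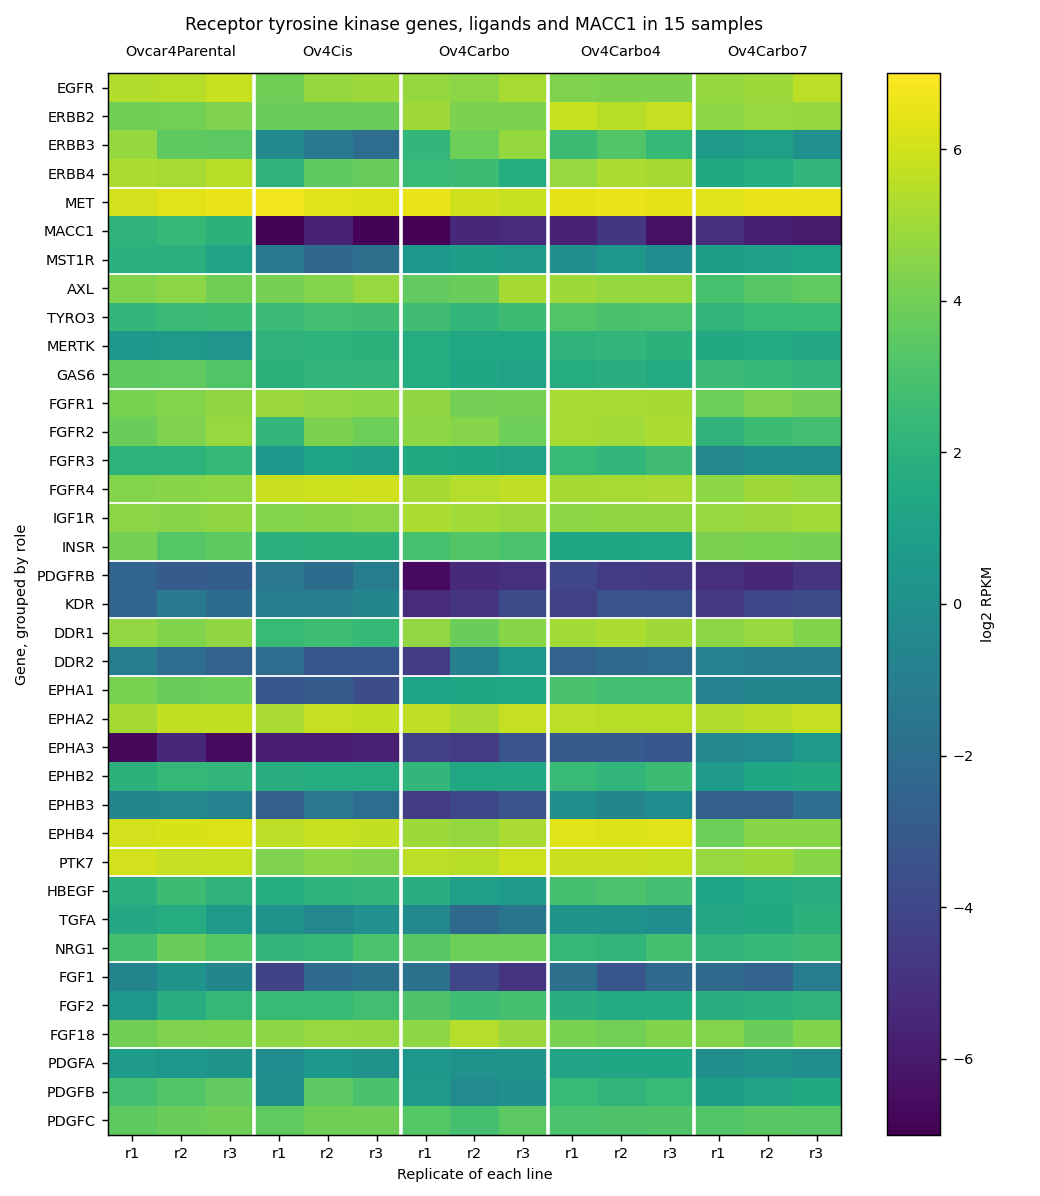
Log2 RPKM of the 37 genes (rows, ordered by receptor or ligand group) in the 15 samples (columns, by line and replicate). MACC1 and EPHA1 show the widest drops from the parental columns, while MET and EPHA2 keep nearly the same shade in all 15 columns.

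MACC1 was lost in every resistant line. Its level was 2.10, 2.37 and 1.99 log2 RPKM in the 3 parental samples, -6.88, -5.67 and -6.88 in Ov4Cis, and -7.13, -5.42 and -5.21 in Ov4Carbo. In Ov4Carbo4 it was -5.67, -4.74 and -6.37, and in Ov4Carbo7 -5.07, -5.79 and -5.996. On the linear scale the parental samples held 3.98 to 5.17 RPKM and no resistant sample held more than 0.0373 RPKM, so the groups were far from overlapping. The log2 change was -8.63 in Ov4Cis (SE 0.53, limma adjusted p = 1.13e-07), -8.07 in Ov4Carbo (adjusted p = 5.99e-07), -7.75 in Ov4Carbo4 (adjusted p = 4.39e-07) and -7.78 in Ov4Carbo7 (adjusted p = 4.28e-07). Because the resistant values sit near the bottom of the table, the size of the fold depends on the scale: after adding 1 RPKM the 4 changes were -2.43, -2.42, -2.42 and -2.42. Between Ov4Cis and Ov4Carbo, which were selected separately, the difference was -0.56 (SE 0.53, 95% interval -1.71 to 0.59, limma adjusted p = 0.44). Both lines sat near the bottom of the table, so this comparison cannot show whether their levels were alike. In RNA of whole cultures, fewer cells with a transcript and less of it per cell cannot be told apart.

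MET, the receptor of hepatocyte growth factor, did not follow MACC1. Its line means were 6.33 ± 0.29 in the parental line, 6.44 ± 0.22 in Ov4Cis and 6.15 ± 0.41 in Ov4Carbo, and in Ov4Carbo4 and Ov4Carbo7 they were 6.47 ± 0.08 and 6.50 ± 0.18 (SD, n = 3 each), and the limma F-test over the 5 lines gave an adjusted p of 0.465. The 95% interval of the difference from the parental line was -0.33 to 0.55 in Ov4Cis and -0.62 to 0.27 in Ov4Carbo. It was -0.30 to 0.58 in Ov4Carbo4 and -0.26 to 0.62 in Ov4Carbo7, so changes larger than these were not seen in any line. MST1R encodes RON, the receptor of macrophage-stimulating protein and the closest relative of MET. It read 1.96, 1.87 and 1.18 in the parental line, -1.28, -2.30 and -1.84 in Ov4Cis and 0.48, 0.85 and 0.67 in Ov4Carbo. In Ov4Carbo4 it read -0.12, 0.39 and -0.20 and in Ov4Carbo7 0.83, 0.88 and 1.11. All resistant samples lay below the lowest parental sample, with Ov4Cis lowest of all. The change was -3.48 in Ov4Cis (SE 0.26, limma adjusted p = 6.32e-07) and -1.64 in Ov4Carbo4 (adjusted p = 0.00036), and it stayed just short of the fold limit in Ov4Carbo (-0.999, adjusted p = 0.0118) and in Ov4Carbo7 (-0.73, adjusted p = 0.0414). With a term for the 2 title runs the Ov4Carbo4 change was -1.36 with an adjusted p of 0.0553.

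Promoter sequence is shown for MACC1, EPHA1, GAS6 and MERTK, the members called in the same direction in all 4 resistant lines. The 250 bases before the RefSeq transcription start were read 5′ to 3′ on the gene's strand (RefSeq, GRCh38.p14), and 32 of the 37 genes had such a window. Capitals mark the E-box CACCTG or its reverse complement CAGGTG, the sequence that repressors of the SNAIL and ZEB families bind.
MACC1: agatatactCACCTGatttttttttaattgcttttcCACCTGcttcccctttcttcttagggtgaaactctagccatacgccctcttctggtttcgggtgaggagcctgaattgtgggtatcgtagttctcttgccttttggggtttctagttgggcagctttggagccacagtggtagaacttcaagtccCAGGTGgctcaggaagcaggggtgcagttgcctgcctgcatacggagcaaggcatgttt
EPHA1: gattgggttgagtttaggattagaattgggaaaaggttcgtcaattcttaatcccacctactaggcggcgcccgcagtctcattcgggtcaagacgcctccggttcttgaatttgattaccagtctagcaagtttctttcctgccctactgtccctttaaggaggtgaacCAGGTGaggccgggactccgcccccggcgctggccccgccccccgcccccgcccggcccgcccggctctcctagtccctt
GAS6: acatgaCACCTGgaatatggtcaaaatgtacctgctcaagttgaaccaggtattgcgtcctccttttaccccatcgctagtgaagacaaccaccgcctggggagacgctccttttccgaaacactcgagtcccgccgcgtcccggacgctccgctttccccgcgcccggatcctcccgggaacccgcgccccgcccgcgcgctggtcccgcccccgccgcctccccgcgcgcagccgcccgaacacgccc
MERTK: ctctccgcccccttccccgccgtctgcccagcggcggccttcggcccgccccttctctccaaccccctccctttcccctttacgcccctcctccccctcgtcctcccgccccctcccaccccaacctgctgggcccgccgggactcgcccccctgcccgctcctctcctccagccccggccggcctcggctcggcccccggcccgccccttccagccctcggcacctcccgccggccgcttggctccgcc
The MACC1 window lies at chr7:20217385-20217634 on the minus strand, the EPHA1 window at chr7:143408857-143409106 on the minus strand, the GAS6 window at chr13:113864077-113864326 on the minus strand and the MERTK window at chr2:111898357-111898606 on the plus strand. The motif occurred 3 times before MACC1, 1 time each before EPHA1 and GAS6 and 0 times before MERTK. A window with at least 3 matches was seen for 0.46% of the 35116 windows in the RefSeq table, and 17.5% of them held the motif at all. Of the 58 windows of the set's 32 genes, 19 (32.8%) held it, several of them alternative starts of 1 gene. The windows also differed in CpG content, with 4 CpG dinucleotides before MACC1, 17 before EPHA1, 31 before GAS6 and 25 before MERTK, where the median window had 11. A match describes these letters only, and no binding or methylation was measured.

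**Figure D2:**
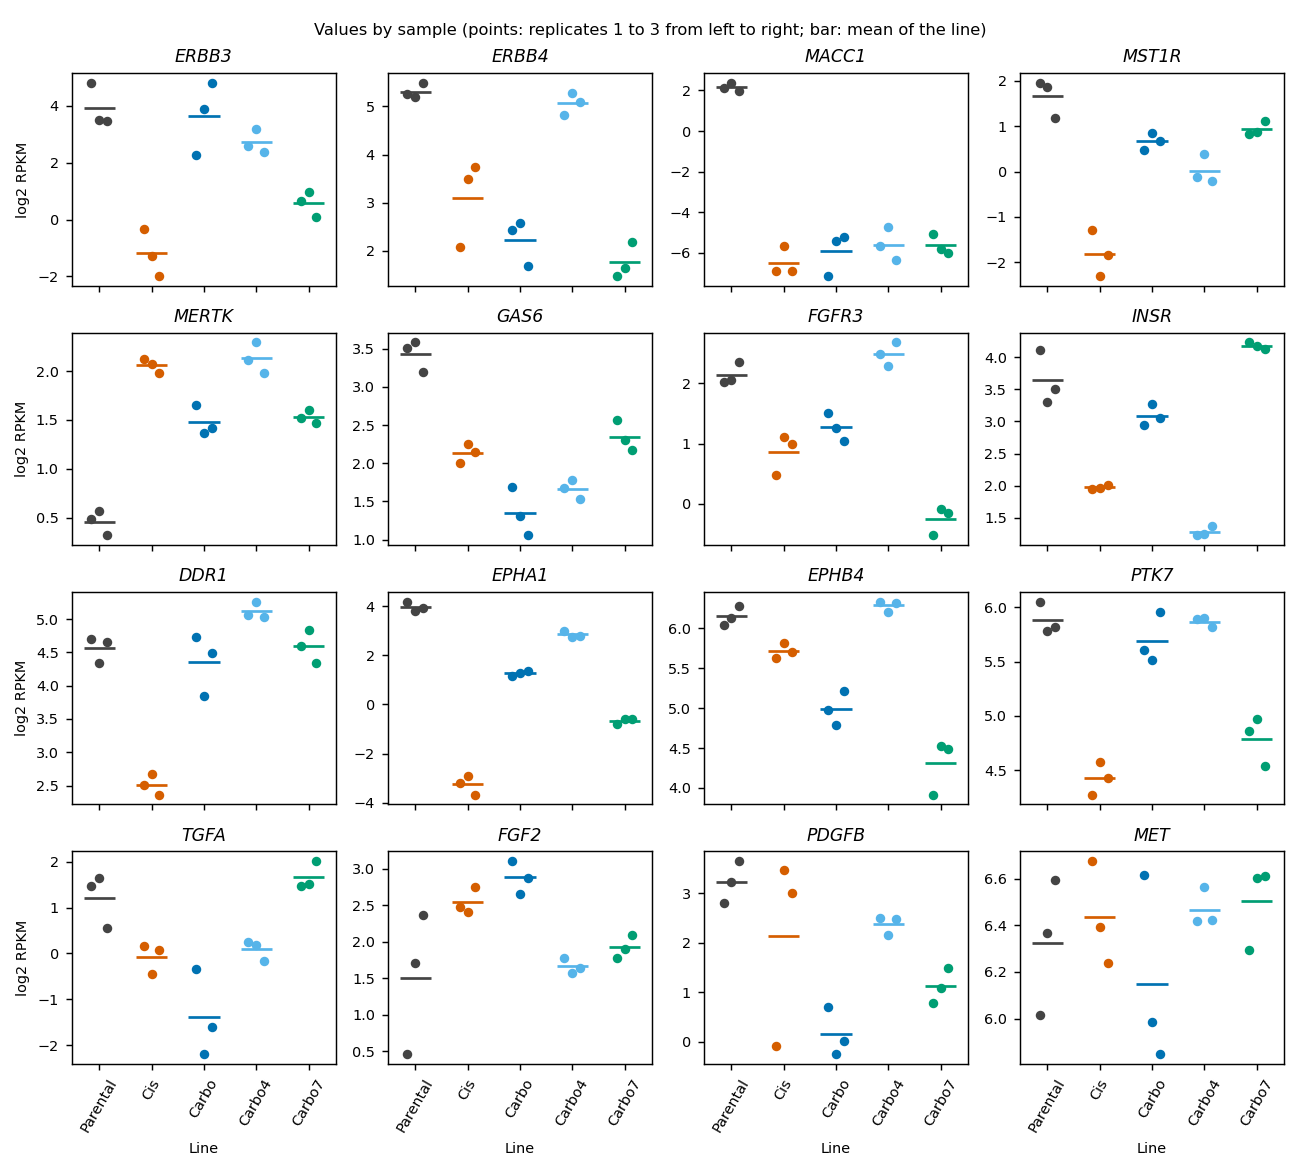
Log2 RPKM in each sample (points) with the line mean (bar) for the members given in full and for MET, 1 panel per gene and 1 column per line. The MACC1 panel shows all 12 resistant samples at or below -4.74 log2 RPKM, and the MERTK and GAS6 panels show shifts in opposite directions.

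The EGF receptor family lost its neuregulin-binding members unevenly. ERBB3, a receptor with a weak kinase that pairs with ERBB2, read 4.81, 3.52 and 3.47 in the parental line and -0.32, -1.27 and -1.98 in Ov4Cis. It read 2.26, 3.90 and 4.79 in Ov4Carbo, 2.60, 3.19 and 2.39 in Ov4Carbo4 and 0.66, 0.97 and 0.10 in Ov4Carbo7. The Ov4Cis and Ov4Carbo7 samples lay well below every parental sample, whereas Ov4Carbo overlapped the parental line and had the widest spread, with replicate 1 lowest. The change was -5.12 in Ov4Cis (SE 0.60, limma adjusted p = 2.85e-05) and -3.35 in Ov4Carbo7 (adjusted p = 0.000716). It was -0.28 in Ov4Carbo (95% interval -1.58 to 1.02, adjusted p = 0.752) and -1.21 in Ov4Carbo4 (adjusted p = 0.132). With a term for the title runs the Ov4Carbo7 change was -1.27 (limma adjusted p = 0.287).

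ERBB4, which binds neuregulins and has an active kinase, fell in 3 of the 4 lines. It read 5.25, 5.19 and 5.49 in the parental line, 2.08, 3.50 and 3.74 in Ov4Cis and 2.44, 2.58 and 1.68 in Ov4Carbo. In Ov4Carbo4 it read 4.82, 5.28 and 5.09, overlapping the parental samples, and in Ov4Carbo7 1.48, 1.65 and 2.19. The change was -2.20 in Ov4Cis (SE 0.37, limma adjusted p = 0.000523), -3.08 in Ov4Carbo (adjusted p = 7.1e-05) and -3.54 in Ov4Carbo7 (adjusted p = 1.21e-05). The other members of the family, EGFR and ERBB2, kept high levels. EGFR had line means from 4.26 in Ov4Carbo4 to 5.56 in the parental line and was called in Ov4Carbo4 (-1.30, limma adjusted p = 0.00198; -1.23 with an adjusted p of 0.0865 with the run term). ERBB2, the partner that has no known ligand, ranged from 3.85 in Ov4Cis to 5.70 in Ov4Carbo4 and rose in Ov4Carbo4 by 1.59 (limma adjusted p = 3.08e-05). With the run term the difference was 0.82, below the fold limit. MIEN1 and PGAP3, which overlap ERBB2 on the opposite strand, differed by 0.53 and -0.30 in Ov4Carbo4.

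Ligands of the family moved by line. TGFA, an EGFR ligand, read 1.47, 1.64 and 0.55 in the parental line, 0.17, -0.45 and 0.08 in Ov4Cis and -0.35, -2.19 and -1.61 in Ov4Carbo. It read 0.24, 0.19 and -0.16 in Ov4Carbo4 and 1.46, 1.52 and 2.02 in Ov4Carbo7. All samples of the first 3 resistant lines lay below the parental ones, while Ov4Carbo7 overlapped them. The fall was called in Ov4Carbo (-2.60, SE 0.41, limma adjusted p = 0.00046), in Ov4Cis (-1.29, adjusted p = 0.0256) and in Ov4Carbo4 (-1.13, adjusted p = 0.0427). The Ov4Cis call ended without parental replicate 1 or 2 or Ov4Cis replicate 2 (adjusted p 0.0805, 0.0975 and 0.0946), and the Ov4Carbo4 call ended in 10 of the 15 fits that left out 1 replicate. HBEGF, another EGFR ligand, ran from 1.09 in Ov4Carbo to 2.91 in Ov4Carbo4 and was called lower in Ov4Carbo (-1.11, limma adjusted p = 0.011), a call that ended without parental replicate 2 or Ov4Carbo replicate 3. NRG1, the neuregulin that binds ERBB3 and ERBB4, ran from 2.41 in Ov4Carbo7 to 3.73 in Ov4Carbo and was not called against the parental line in any comparison.

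The epithelial genes EPCAM and CDH1 were lowest in Ov4Cis and Ov4Carbo7, the lines in which ERBB3 fell and EPHA1 was lowest. MST1R did not share this order, since it was lower in Ov4Carbo4 than in Ov4Carbo7. EPCAM, an epithelial adhesion protein, had line means of 5.98 in the parental line, 1.17 in Ov4Cis and 5.32 in Ov4Carbo, and of 5.23 and 3.01 in Ov4Carbo4 and Ov4Carbo7. CDH1, which encodes E-cadherin, had means of 4.63, -3.52, 2.88, 3.62 and 1.80 in the same order. Among the other serous markers, MUC16, CLDN3 and CLDN4 were also lowest in Ov4Cis and Ov4Carbo7. FOLR1 and MSLN were instead lower in Ov4Carbo4 (-0.76 and 0.42) than in Ov4Carbo7 (1.25 and 1.37). KRT7 and KRT18 differed little between Ov4Carbo4 (5.64 and 6.46) and Ov4Carbo7 (5.48 and 6.43). The 13 ovarian serous markers summed to 903 to 1100 RPKM per parental sample, 342 to 442 in Ov4Cis, 521 to 555 in Ov4Carbo, 564 to 618 in Ov4Carbo4 and 418 to 429 in Ov4Carbo7. Their part in the receptor results was not tested.

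The TAM receptors TYRO3, AXL and MERTK clear dying cells and carry survival signals, and GAS6 is their ligand. MERTK rose in all 4 resistant lines while GAS6 fell. MERTK read 0.48, 0.57 and 0.32 in the parental line, 2.12, 2.08 and 1.98 in Ov4Cis and 1.66, 1.36 and 1.42 in Ov4Carbo. It read 2.11, 2.30 and 1.98 in Ov4Carbo4 and 1.52, 1.60 and 1.47 in Ov4Carbo7, so every resistant sample lay above every parental one. It rose by 1.61 in Ov4Cis (SE 0.11, limma adjusted p = 2.97e-07), 1.02 in Ov4Carbo (adjusted p = 3.14e-05), 1.67 in Ov4Carbo4 (adjusted p = 3.67e-07) and 1.07 in Ov4Carbo7 (adjusted p = 1.09e-05). The Ov4Carbo difference sat at the fold limit: it was 0.94 without Ov4Carbo replicate 1 (adjusted p = 9.6e-05) and 0.96 without parental replicate 3. With the run term the differences were 0.94 in Ov4Carbo and 0.80 in Ov4Carbo7 (limma adjusted p = 0.00901). After adding 1 RPKM the MERTK differences were 0.68 in Ov4Carbo and 0.71 in Ov4Carbo7, both under the fold limit. The Ov4Cis and Ov4Carbo4 calls held on that scale.

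GAS6 read 3.51, 3.58 and 3.20 in the parental line, 2.01, 2.26 and 2.15 in Ov4Cis and 1.69, 1.31 and 1.06 in Ov4Carbo. It read 1.68, 1.78 and 1.54 in Ov4Carbo4 and 2.57, 2.31 and 2.17 in Ov4Carbo7. No resistant sample reached the lowest parental one, and Ov4Carbo was lowest. The change was -1.29 in Ov4Cis (SE 0.17, limma adjusted p = 5.82e-05), -2.08 in Ov4Carbo (adjusted p = 2.67e-06), -1.77 in Ov4Carbo4 (adjusted p = 5.62e-06) and -1.08 in Ov4Carbo7 (adjusted p = 0.000224). The Ov4Carbo7 difference was -0.99 without Ov4Carbo7 replicate 3 and -0.95 after adding 1 RPKM, both under the fold limit. AXL stayed between 3.30 in Ov4Carbo7 and 4.84 in Ov4Carbo4 and was called in Ov4Carbo7 (-1.01, limma adjusted p = 0.0298), a call that ended in 4 of the 15 fits without 1 replicate and with the run term (-0.16). TYRO3 stayed between 2.37 and 3.07 with no call.

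The Eph receptors, which bind membrane-bound ephrins at cell contacts, included a graded loss, that of EPHA1, and the narrowest range of line means among the 37 genes, that of EPHA2. EPHA1 read 4.20, 3.81 and 3.93 in the parental line, -3.19, -2.90 and -3.68 in Ov4Cis and 1.14, 1.28 and 1.39 in Ov4Carbo. It read 3.001, 2.76 and 2.81 in Ov4Carbo4 and -0.81, -0.58 and -0.58 in Ov4Carbo7. No 2 of the 5 lines overlapped, and the order from high to low was parental, Ov4Carbo4, Ov4Carbo, Ov4Carbo7 and Ov4Cis. The change was -7.23 in Ov4Cis (SE 0.18, limma adjusted p = 4.43e-11), -2.71 in Ov4Carbo (adjusted p = 5.41e-07), -1.12 in Ov4Carbo4 (adjusted p = 0.000297) and -4.63 in Ov4Carbo7 (adjusted p = 1.14e-08). With the run term the Ov4Carbo4 difference was -0.93, under the fold limit. EPHA1 overlaps ZYX on the opposite strand, and whether reads were counted by strand is not given in the sources used here. ZYX differed from the parental line by -0.60, -0.76, -0.63 and -0.56 in the 4 lines.

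EPHB4, a receptor of ephrin-B2, was among the most abundant of the set. It read 6.04, 6.14 and 6.28 in the parental line, 5.63, 5.82 and 5.71 in Ov4Cis and 4.97, 4.78 and 5.21 in Ov4Carbo. It read 6.34, 6.21 and 6.32 in Ov4Carbo4 and 3.92, 4.52 and 4.49 in Ov4Carbo7. Ov4Carbo7 and Ov4Carbo lay below all parental samples and Ov4Carbo4 overlapped them. The change was -1.16 in Ov4Carbo (SE 0.16, limma adjusted p = 0.000163) and -1.84 in Ov4Carbo7 (adjusted p = 2.44e-06), and the difference of -0.43 in Ov4Cis was under the fold limit. The opposite-strand neighbour SLC12A9 differed by -0.86 in Ov4Carbo and -1.31 in Ov4Carbo7.

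EPHA2 held line means between 5.52 and 5.57 in all 5 lines (limma F-test adjusted p = 0.999). The 95% interval of its difference from the parental line was -0.39 to 0.48 in Ov4Cis and -0.39 to 0.49 in Ov4Carbo7. EPHB2 ran from 1.18 in Ov4Carbo7 to 2.44 in Ov4Carbo4 and was not called against the parental line, but with the run term it was called lower in Ov4Carbo7 (-1.90, limma adjusted p = 0.00249). The remaining Eph receptors in the table were below log2 RPKM 1 in every line. EPHB3 fell in Ov4Cis (-1.40, limma adjusted p = 0.00745), Ov4Carbo (-3.34, adjusted p = 2.44e-05) and Ov4Carbo7 (-1.82, adjusted p = 0.00124), from a parental mean of only -0.64. After adding 1 RPKM the 3 EPHB3 differences were -0.39, -0.62 and -0.47, under the fold limit, and with the run term the Ov4Carbo7 difference was -0.95 (limma adjusted p = 0.246). EPHA3 rose from -6.22 in the parental line to -4.02 in Ov4Carbo, -3.07 in Ov4Carbo4 and -0.02 in Ov4Carbo7, where its 3 samples read -0.39, -0.23 and 0.56. Its log2 change of 6.20 in Ov4Carbo7 (limma adjusted p = 1.77e-07) became 0.98 after adding 1 RPKM.

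**Figure D3:**
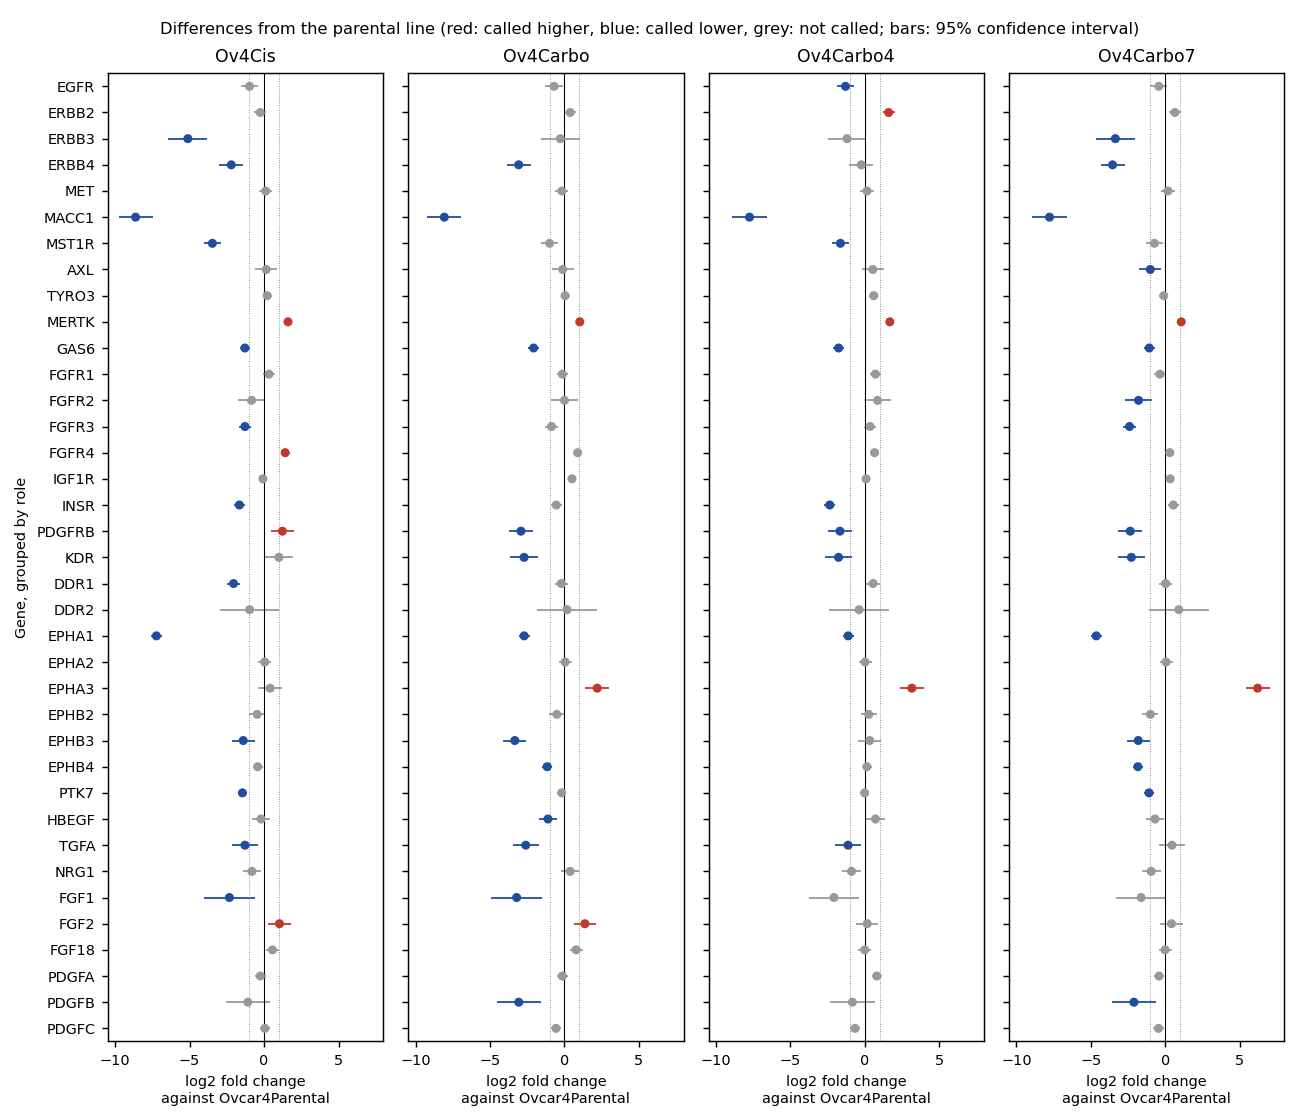
Log2 change against the parental line (x axis) with 95% intervals for the 37 genes (rows), 1 panel per resistant line. The MACC1 points lie between -8.63 and -7.75 in the 4 panels, EPHA1 moves from -7.23 to -1.12 between lines, and the MET and EPHA2 intervals span 0 throughout.

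The FGF receptors changed by line and not as a family. FGFR3 read 2.03, 2.05 and 2.35 in the parental line, 0.47, 1.11 and 0.99 in Ov4Cis and 1.501, 1.27 and 1.04 in Ov4Carbo. It read 2.49, 2.29 and 2.69 in Ov4Carbo4 and -0.53, -0.09 and -0.16 in Ov4Carbo7. Ov4Carbo7 was lowest and Ov4Carbo4 overlapped the parental line. The change was -1.29 in Ov4Cis (SE 0.19, limma adjusted p = 0.000189) and -2.40 in Ov4Carbo7 (adjusted p = 1.37e-06). FGFR4 rose in Ov4Cis from a mean of 4.51 to 5.93 (1.41, limma adjusted p = 5.14e-06), and its difference of 0.89 in Ov4Carbo became 1.03 without Ov4Carbo replicate 1. FGFR2 fell in Ov4Carbo7 from 4.32 to 2.52 (-1.80, limma adjusted p = 0.00428; adjusted p = 0.0545 with the run term). FGFR1 stayed between 4.08 and 5.15 with no call against the parental line.

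Among FGF ligands, FGF2, a secreted mitogen, read 0.46, 1.71 and 2.36 in the parental line, 2.47, 2.41 and 2.74 in Ov4Cis and 3.11, 2.66 and 2.88 in Ov4Carbo. It read 1.78, 1.57 and 1.64 in Ov4Carbo4 and 1.77, 1.90 and 2.10 in Ov4Carbo7. The parental samples were widely spread, and parental replicate 1 was low. The rise was 1.03 in Ov4Cis (SE 0.34, limma adjusted p = 0.0323) and 1.37 in Ov4Carbo (adjusted p = 0.00909). Without parental replicate 1 the difference was 0.51 in Ov4Cis and 0.85 in Ov4Carbo, and neither was called. The Ov4Cis call also ended without any 1 of the Ov4Cis replicates (limma adjusted p 0.0626, 0.0565 and 0.102). NUDT6, on the strand opposite FGF2, differed by 0.24 and 0.31 in these lines. FGF1, below log2 RPKM 1 in every line, fell in Ov4Cis (-2.33, limma adjusted p = 0.0334) and in Ov4Carbo (-3.22, adjusted p = 0.00758). The FGF1 fall in Ov4Cis was -1.60 without Ov4Cis replicate 1, and its call also ended without any 1 of the parental replicates. FGF18 stayed between 4.19 and 4.98 with no call.

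INSR, the insulin receptor, was lowest in 1 single-cell line and highest in the other. It read 4.11, 3.30 and 3.51 in the parental line, 1.95, 1.97 and 2.02 in Ov4Cis and 2.94, 3.27 and 3.05 in Ov4Carbo. It read 1.23, 1.25 and 1.37 in Ov4Carbo4 and 4.23, 4.17 and 4.13 in Ov4Carbo7. Every Ov4Carbo7 sample lay above the highest parental one, and every sample of the other 3 resistant lines lay below the lowest. The fall was called in Ov4Cis (-1.66, SE 0.17, limma adjusted p = 7.53e-06) and in Ov4Carbo4 (-2.36, adjusted p = 5.57e-07). The difference was -0.55 in Ov4Carbo (adjusted p = 0.0234) and 0.54 in Ov4Carbo7 (adjusted p = 0.0204), both under the fold limit. IGF1R, the related receptor of insulin-like growth factors, held between 4.51 in Ov4Cis and 5.08 in Ov4Carbo with no call. The 95% interval of its difference from the parental line was -0.32 to 0.16 in Ov4Cis and 0.26 to 0.74 in Ov4Carbo.

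PDGFB, a ligand of the PDGF receptors, fell in both Ov4Carbo and Ov4Carbo7. It read 2.80, 3.23 and 3.65 in the parental line, -0.07, 3.48 and 3.004 in Ov4Cis and 0.70, -0.24 and 0.01 in Ov4Carbo. It read 2.51, 2.17 and 2.48 in Ov4Carbo4 and 0.79, 1.09 and 1.49 in Ov4Carbo7. Replicate 1 of Ov4Cis was far below the other replicates of its line, which overlapped the parental samples. The change was -3.07 in Ov4Carbo (SE 0.69, limma adjusted p = 0.00466) and -2.11 in Ov4Carbo7 (adjusted p = 0.0259). The Ov4Carbo7 call ended without parental replicate 2 or 3 or Ov4Carbo7 replicate 1 or 2 (adjusted p 0.0599, 0.0821, 0.0787 and 0.0613) and with the run term. PDGFA stayed between -0.01 and 1.22 and PDGFC between 3.11 and 3.83, with no call against the parental line.

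PDGFRB and KDR, receptors of PDGF and of vascular endothelial growth factor, were close to the floor of the table. PDGFRB had a mean of -2.74 in the parental line, -1.51 in Ov4Cis and -5.66 in Ov4Carbo, and of -4.41 and -5.09 in Ov4Carbo4 and Ov4Carbo7. KDR followed the same order with means of -1.88, -0.89, -4.59, -3.65 and -4.16. PDGFRB was called higher in Ov4Cis (1.23, limma adjusted p = 0.0184), a call that ended in 4 of the 15 fits without 1 replicate. Both genes were called lower in Ov4Carbo, Ov4Carbo4 and Ov4Carbo7, PDGFRB by -2.92, -1.68 and -2.35 and KDR by -2.71, -1.77 and -2.28. After adding 1 RPKM these differences were -0.17, -0.14 and -0.16 for PDGFRB and -0.30, -0.25 and -0.28 for KDR. The PDGFRB difference in Ov4Cis was 0.24 on that scale, and all of these were under the fold limit. With the run term the calls of both genes in Ov4Carbo4 and Ov4Carbo7 ended.

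The collagen receptor DDR1 was called in Ov4Cis and in no other line against the parental line. It read 4.71, 4.34 and 4.65 in the parental line, 2.50, 2.67 and 2.36 in Ov4Cis and 4.73, 3.84 and 4.49 in Ov4Carbo. It read 5.07, 5.26 and 5.03 in Ov4Carbo4 and 4.59, 4.83 and 4.35 in Ov4Carbo7. The Ov4Cis samples lay below all 12 others. The change was -2.05 in Ov4Cis (SE 0.21, limma adjusted p = 7.28e-06) and the difference in Ov4Carbo was -0.21. The direct comparison of the 2 lines gave -1.84 (adjusted p = 2.71e-05). DDR2, the other collagen receptor, was below log2 RPKM 1 in every line. In Ov4Carbo it read -4.55, -0.86 and 0.35, and without the low replicate 1 its change from the parental line was 1.61 (limma adjusted p = 0.0211). The run term rests on this spread of DDR2 in Ov4Carbo: with it the difference from the parental line went from -0.39 to 3.91 in Ov4Carbo4 (limma adjusted p = 0.00382) and from 0.91 to 5.21 in Ov4Carbo7 (adjusted p = 0.00113).

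PTK7, a receptor with an inactive kinase that acts in WNT and planar polarity signalling, read 6.05, 5.78 and 5.82 in the parental line, 4.28, 4.58 and 4.43 in Ov4Cis and 5.60, 5.51 and 5.96 in Ov4Carbo. It read 5.89, 5.90 and 5.81 in Ov4Carbo4 and 4.86, 4.97 and 4.54 in Ov4Carbo7. Ov4Cis and Ov4Carbo7 lay below all the other samples. The change was -1.46 in Ov4Cis (SE 0.14, limma adjusted p = 6.75e-06) and -1.09 in Ov4Carbo7 (adjusted p = 7.16e-05). The Ov4Carbo7 change was -0.97 without Ov4Carbo7 replicate 3 and -0.96 with the run term, both under the fold limit.

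The single-cell lines differed from each other in 16 of the 37 genes (43.2%), 3 higher and 13 lower in Ov4Carbo7, where 20.9% of all genes were called (11.1% higher, 9.86% lower). Both lie in the same title run, so the run does not enter this comparison. The receptors ERBB3 (-2.15), ERBB4 (-3.30), AXL (-1.54), FGFR1 (-1.07), FGFR2 (-2.65) and FGFR3 (-2.75) were lower in Ov4Carbo7. So were EPHA1 (-3.51), EPHB2 (-1.26), EPHB3 (-2.14), EPHB4 (-1.98) and PTK7 (-1.08), and the ligands HBEGF (-1.40) and PDGFA (-1.22). INSR (2.90, SE 0.17, limma adjusted p = 9.68e-08), EPHA3 (3.05) and TGFA (1.58) were higher. The FGFR1 call ended without Ov4Carbo7 replicate 1 (-0.97) and the PTK7 call without Ov4Carbo7 replicate 3 (-0.95).

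**Figure D4:**
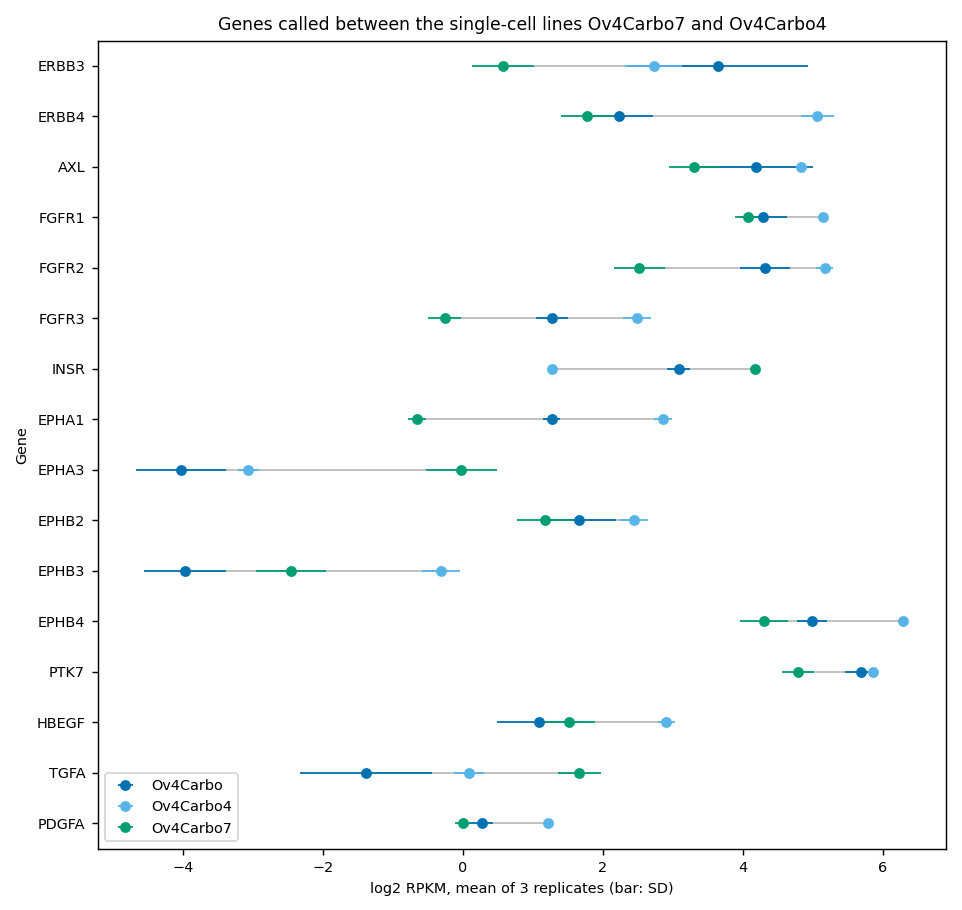
Mean log2 RPKM (x axis; bars are SDs of 3 replicates) in Ov4Carbo and in the single-cell lines Ov4Carbo4 and Ov4Carbo7 for the 16 genes called between these single-cell lines (rows). Ov4Carbo lies between its single-cell lines for INSR and EPHA1 and below both for TGFA and EPHB3.

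Against Ov4Carbo, from which both were grown, Ov4Carbo4 had 13 of 37 genes called (35.1%), 10 higher and 3 lower, against 14.2% of all genes (7.58% higher, 6.64% lower). ERBB4 rose by 2.83 (limma adjusted p = 0.000108), EPHA1 by 1.59, EPHB4 by 1.30, HBEGF by 1.82 and ERBB2 by 1.22. INSR changed by -1.81 (limma adjusted p = 8.05e-06), NRG1 by -1.27 and FGF2 by -1.22. FGFR3 (1.22), TGFA (1.47), PDGFB (2.23), PDGFRB (1.25) and EPHB3 (3.66) completed the 13. Without Ov4Carbo replicate 1 the count was 18, and ERBB3 (-1.62) and FGFR1 (1.05) were among the added calls. In Ov4Carbo7 9 of 37 were called (24.3%), 4 higher and 5 lower, against 13.3% of all genes (7.72% higher, 5.62% lower). ERBB3 changed by -3.07, FGFR2 by -1.80, FGFR3 by -1.53, EPHA1 by -1.93 and NRG1 by -1.32, while INSR (1.09), TGFA (3.05), EPHA3 (4.002) and EPHB3 (1.52) were higher. The ERBB3 change in Ov4Carbo7 was -3.77 without Ov4Carbo replicate 1. With the run term the calls of ERBB2, FGFR3, TGFA, NRG1 and PDGFB in Ov4Carbo4 and of ERBB3 and NRG1 in Ov4Carbo7 ended. The Ov4Carbo4 calls of PDGFB, PDGFRB and TGFA also ended in 4, 2 and 1 of the 15 fits without 1 replicate.

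Between the 2 lines selected in different drugs, 13 of 37 genes were called (35.1%), 5 higher and 8 lower in Ov4Cis than in Ov4Carbo, against 13.8% of all genes (7.88% higher, 5.9% lower). Lower in Ov4Cis were ERBB3 (-4.84, SE 0.60, limma adjusted p = 6.45e-05), EPHA1 (-4.53), MST1R (-2.48), DDR1 (-1.84), PTK7 (-1.26), INSR (-1.11), NRG1 (-1.20) and the low-level EPHA3 (-1.79). Higher were PDGFRB (4.16), KDR (3.71) and EPHB3 (1.93), all below log2 RPKM 1 in both lines, and TGFA (1.32) and PDGFB (1.98). The TGFA and PDGFB values overlapped between the lines, and the calls ended in 4 and 11 of the 15 fits without 1 replicate. The 2 lines are 1 selection each, so the drug cannot be told apart from the line.

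The other genes of the pathway were taken from 5 lists. Their calls are set beside the 15.9%, 12.7%, 15.1% and 17% of all genes called in Ov4Cis, Ov4Carbo, Ov4Carbo4 and Ov4Carbo7. The run term and the other alternative fits were examined for the members of the set only, so these calls were not checked that way. Of 24 other receptor tyrosine kinases 10 were in the table, with 5 called higher and 2 lower in Ov4Cis, 3 and 1 in Ov4Carbo, 3 and 1 in Ov4Carbo4 and 3 and 0 in Ov4Carbo7. The shares called were 70%, 40%, 40% and 30%, against the 15.9%, 12.7%, 15.1% and 17% of all genes. ROR2, a WNT5A receptor, rose in all 4 lines from a parental mean of -1.15, by 3.11, 3.27, 4.48 and 3.68 (limma adjusted p = 2.56e-06, 4.11e-06, 2.08e-07 and 9.37e-07). STYK1 rose from a parental mean of 0.15 in Ov4Cis (1.02, limma adjusted p = 0.002) and Ov4Carbo7 (1.16, adjusted p = 0.000747). TIE1, a receptor best known from endothelium, rose in Ov4Cis from 0.18 to 5.52 (5.34, limma adjusted p = 5.87e-08). Of 6 endothelial markers 4 were in the table, TIE1 itself among them, and they summed to 87.5 to 98.7 RPKM in Ov4Cis against 12.1 to 14.3 in the parental line. CDH5 had means of 5.13 and 2.46, ERG of 3.28 and 2.47 and VWF of -0.55 and -0.19 in these lines. In Ov4Carbo4 CDH5 was 4.42 while TIE1 was 0.10. Their part in the TIE1 result was not tested.

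Of 41 other ligands 28 were in the table, with 6 called higher and 7 lower in Ov4Cis, 2 and 7 in Ov4Carbo, 4 and 7 in Ov4Carbo4 and 3 and 8 in Ov4Carbo7. The shares called were 46.4%, 32.1%, 39.3% and 39.3%, against 15.9%, 12.7%, 15.1% and 17% of all genes. The ephrins EFNB2 and EFNB1, ligands of EphB receptors, fell in all 4 lines. EFNB2 changed by -1.43, -2.16, -1.38 and -2.12 from a parental mean of 5.05, and EFNB1 by -1.22, -1.48, -1.04 and -1.34. EGF, the founding EGFR ligand, was low, with means of -1.91 in the parental line, 0.49 in Ov4Cis and -0.20 in Ov4Carbo. In Ov4Carbo4 its mean was -2.94 and in Ov4Carbo7 1.52. EGF rose in Ov4Cis (2.40), Ov4Carbo (1.72) and Ov4Carbo7 (3.43) and fell in Ov4Carbo4 (-1.03, limma adjusted p = 0.0365). Its parental and Ov4Carbo4 values rest on few reads.

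Of 14 genes of ligand processing 13 were in the table, with 1 called higher and 3 lower in Ov4Cis, 1 and 4 in Ov4Carbo, 1 and 1 in Ov4Carbo4 and 0 and 4 in Ov4Carbo7. The shares called were 30.8%, 38.5%, 15.4% and 30.8%, against 15.9%, 12.7%, 15.1% and 17% of all genes, so the Ov4Carbo4 share was near that of all genes. ST14 encodes matriptase, a protease that can activate pro-HGF, and it fell from a parental mean of 5.62 by -7.10, -2.40, -1.80 and -5.42 in the 4 lines (limma adjusted p = 2.44e-09, 5.36e-05, 0.000296 and 6.98e-08). Its inhibitors SPINT2 (-6.76, -1.08 and -2.18) and SPINT1 (-5.38, -1.55 and -3.44) fell in Ov4Cis, Ov4Carbo and Ov4Carbo7. Their Ov4Carbo4 differences of -0.62 and -0.88 were under the fold limit.

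Of 33 adaptors and effectors 31 were in the table, with 1 called higher and 2 lower in Ov4Cis, 0 and 1 in Ov4Carbo, 1 and 2 in Ov4Carbo4 and 1 and 1 in Ov4Carbo7. The shares called were 9.68%, 3.23%, 9.68% and 6.45%, against 15.9%, 12.7%, 15.1% and 17% of all genes. IRS1, an adaptor of the insulin and IGF1 receptors, fell in all 4 lines, by -2.14, -2.06, -1.30 and -1.55 from a parental mean of 3.08. IRS2 fell in Ov4Cis (-3.01, limma adjusted p = 4.23e-07) and was not called in the other lines. PIK3R1, a regulatory subunit of PI3K, rose in Ov4Cis (1.24), Ov4Carbo4 (1.16) and Ov4Carbo7 (1.23).

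Of 22 feedback regulators and ERK-responsive genes 20 were in the table, with 3 called higher and 1 lower in Ov4Cis, 2 and 1 in Ov4Carbo, 3 and 4 in Ov4Carbo4 and 3 and 2 in Ov4Carbo7. The shares called were 20%, 15%, 35% and 25%, against 15.9%, 12.7%, 15.1% and 17% of all genes, so those in Ov4Cis and Ov4Carbo were near that of all genes. DUSP6, a phosphatase that ERK signalling induces and that acts on ERK, rose in all 4 lines, by 3.29, 1.34, 1.11 and 1.70 from a parental mean of 1.32 (limma adjusted p = 8.84e-06, 0.00929, 0.02 and 0.00145). FOS rose in Ov4Cis (1.80, limma adjusted p = 0.0288) and fell in Ov4Carbo7 (-2.15, adjusted p = 0.0104). Its replicates were widely spread, with an SD of 1.10 for the parental line and 1.03 for Ov4Carbo7. PHLDA1 rose in Ov4Cis (1.57) and Ov4Carbo7 (1.66). These genes were named for their number of calls and do not stand for the list. Its median log2 change was negative in every resistant line (Ov4Cis -0.06, Ov4Carbo -0.17, Ov4Carbo4 -0.515, Ov4Carbo7 -0.16). The 4 genes called lower in Ov4Carbo4 are not among those named. No phosphorylated protein was measured.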

How the data were processed

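RNA of 5 lines with 3 replicates each, 15 samples, was analysed from 1 table of 16604 genes. The authors deposited log2 RPKM values normalised with cqn, a method that adjusts for gene length and GC content, as the table's name states; the name also records a threshold whose rule is not given in the sources used here. BWA 0.7.15-r1140, HTSeq and the builds hg19 and GRCh37 are named per the submitters' processing notes, without their roles. The table holds no counts, so depth per sample is unknown and no counting interval was made. No value was missing and 0 sample columns were left out. Normalisation to a common distribution makes differences relative to the other genes, and very low log2 values are unstable.

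Lines were compared with limma 3.58.1 in R 4.3.3 on the deposited values, taking every gene and sample in 1 fit with a mean per line, 10 residual degrees of freedom and Benjamini-Hochberg adjustment over the 16604 genes of each of 8 comparisons. With 3 samples against 3 an exact permutation test cannot go below p = 0.1, so none was used. Data for Ov4Cis against the parental line were also simulated, with 16604 genes. Of 200 genes changed by 2 log2 units, 179 were recovered with their direction, and 2 unchanged genes were called. The simulated noise was normal, with the same SD for a gene in every line, and held no run effect or outlying replicate. These counts therefore do not give the rate of false calls in the data. The 48 members and the 5 context lists were chosen with earlier results of these data known. Members were given in full where a line mean reached log2 RPKM 1 and the gene was called in at least 2 comparisons with the parental line, or in 1 with a log2 change of at least 2; in each context list, up to 3 genes with the most calls were named. Promoter windows came from RefSeq (GRCh38.p14) and were matched by symbol, with no coordinate taken from the expression table; opposite-strand neighbours came from GENCODE 29. Alternatives were log2(RPKM + 1), a filter on low values, centring on sample medians, fits of the compared lines alone, a replicate block, a title-run term, a stricter adjusted p and leaving out each replicate.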

Additional observations from a re-analysis of the deposited data

Results flagged for a closer look

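INSR was below the parental line in Ov4Cis, Ov4Carbo and Ov4Carbo4 and above it in Ov4Carbo7. It was higher by 1.09 log2 units in Ov4Carbo7 than in Ov4Carbo (limma adjusted p = 0.000363), with differences from the parental line of 0.54 and -0.55. It was higher by 2.90 in Ov4Carbo7 than in Ov4Carbo4 (limma adjusted p = 9.68e-08), with 0.54 and -2.36 against the parental line. The 2 single-cell lines share a title run.

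PDGFRB also lay on opposite sides of the parental line in the lines selected with different drugs. It was higher by 4.16 in Ov4Cis than in Ov4Carbo (limma adjusted p = 3.62e-06), with 1.23 and -2.92 against the parental line. All its samples were below log2 RPKM -1, so few reads stand behind these values, and after adding 1 RPKM the difference was 0.42. In each case the difference itself passed the test.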

How the results depend on the processing

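None of the 111 calls of a member in a comparison changed direction under any alternative run. Among values not called, DDR2 turned from -0.39 to 3.91 in Ov4Carbo4 against the parental line and from -0.56 to 2.31 against Ov4Carbo with the title-run term, and both were then called. The low-level genes carried many calls: on log2(RPKM + 1) the number of members called against the parental line was 11 in Ov4Cis, 8 in Ov4Carbo and 9 in Ov4Carbo7, and 7 between Ov4Cis and Ov4Carbo. Restricted to the 12037 genes of mean log2 RPKM 1 or more, which hold 26 members, the numbers were 10 in Ov4Cis, 7 in Ov4Carbo, 5 in Ov4Carbo4, 10 in Ov4Carbo7, 5 between Ov4Carbo7 and Ov4Carbo and 6 between Ov4Cis and Ov4Carbo, because fewer members were tested.

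Of the 111 calls, 41 ended on log2(RPKM + 1), 14 at adjusted p under 0.01, 7 in fits of the 2 compared lines alone, 23 with the title-run term and 0 with centring. The run term also added 16 calls, of DDR2, FGF1, HBEGF, EPHB2, FGFR4 and PDGFRB. Leaving out each replicate in turn, 92 of the 111 calls held in every fit, and the counts ran from 14 to 17 for Ov4Cis, 14 to 16 for Ov4Carbo, 11 to 13 for Ov4Carbo4 and 14 to 17 for Ov4Carbo7 against the parental line. They ran from 11 to 18 for Ov4Carbo4 and 9 to 12 for Ov4Carbo7 against Ov4Carbo, 15 to 18 between the single-cell lines and 11 to 15 between Ov4Cis and Ov4Carbo. The F-test count ran from 33 to 35.

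Replicate numbers did not pair the samples across all lines: correlations of deviations of same-numbered samples ran from -0.39 to 0.44, with 11 of 30 above 0.1. They were positive between the parental line and Ov4Cis (0.44, 0.03 and 0.15) and between Ov4Cis and Ov4Carbo7 (0.26, 0.14 and 0.23). Between the parental line and Ov4Carbo they were negative (-0.39, -0.13 and -0.22). With a replicate block, 16 members were called in Ov4Cis against 17 without it; the call of FGF1 ended (-2.33, limma adjusted p = 0.0569), and no other call of a member changed. Unknown depth limits every value far below log2 RPKM 0.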
